A study of Mus musculus with 12 samples.

Results

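Ogg1, Apex1, Parp1 and Parp2, which act in the repair of oxidised and broken DNA, were examined across the hippocampus of 12 mice. The members were the rows of the deposited table with the symbols Ogg1 and Apex1 and any symbol made of Parp and a digit, which gave 4 of the 770 genes. All 4 exceeded the table's floor of 20 normalized counts in each of the 12 mice, so that none was lost to the filter on low values, which kept 608 genes for testing. The RNA was hybridised to a NanoString nCounter panel, an assay that counts barcoded probes molecule by molecule without amplification.

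The mice fell into 4 groups of 3: control females, mtOGG1 females, control males and mtOGG1 males. All were 13 months old and on the C57BL6/J background, and the labels record no treatment that separates the groups. The genotype of the mtOGG1 mice is, by the series title, expression of OGG1 in mitochondria. The labels do not give the promoter of the transgene, the species its coding sequence comes from, the cell types it is active in or the number of founder lines. Nothing in them says that the mice of a group came from separate litters, and p-values measure the spread between these samples.

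From 281838 to 418467 molecules per mouse were counted above the floor, as inferred from the normalized values, and the highest negative control probe reached 14. The labels link to a panel for metabolism, yet most rows carry neuroinflammation genes, and base excision repair is covered in part. None of 12 neuron genes checked stood at the floor in all mice, and Slc17a6 and Ttr, which mark neighbouring tissue, ranged widely between mice.

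Base excision repair removes small lesions such as 8-oxoguanine, the common product of guanine oxidation. OGG1 is the DNA glycosylase that cuts 8-oxoguanine out of DNA and leaves a site without a base. APEX1, the main apurinic/apyrimidinic endonuclease, then nicks the backbone at that site. PARP1 and PARP2 bind the strand break and build chains of ADP-ribose that recruit the enzymes which fill and seal the gap. The same pathway works in the nucleus and, with OGG1 and APEX1 among its enzymes, in mitochondria, and it is regarded as important in neurons, which are long-lived and consume much oxygen.

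The 250 bases before the transcription start of each gene are shown as the regulatory sequence next to the transcripts counted, since the results turn on whether these 4 transcripts move with genotype or with each other. They come from RefSeq on the build GRCm38.p6, in which all 4 genes had an entry, and are read on the plus strand, 5′ to 3′. Capitals mark matches, on either strand, to GGGCGG (the GC box), CACGTG (an E-box), CCGGAAG (the core of sites for ETS factors) and CCAAT. Ogg1 lies on chromosome 6 and Parp1 on chromosome 1, while Parp2 and Apex1 lie on chromosome 14 with 3 protein-coding genes between them.
Ogg1, chr6:113326726-113326975: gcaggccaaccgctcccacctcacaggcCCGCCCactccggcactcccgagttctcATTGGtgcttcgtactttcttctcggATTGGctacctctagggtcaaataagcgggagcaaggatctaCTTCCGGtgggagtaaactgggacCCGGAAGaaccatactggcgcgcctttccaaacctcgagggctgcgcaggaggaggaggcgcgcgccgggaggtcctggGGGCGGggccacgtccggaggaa
Apex1, chr14:50924699-50924948: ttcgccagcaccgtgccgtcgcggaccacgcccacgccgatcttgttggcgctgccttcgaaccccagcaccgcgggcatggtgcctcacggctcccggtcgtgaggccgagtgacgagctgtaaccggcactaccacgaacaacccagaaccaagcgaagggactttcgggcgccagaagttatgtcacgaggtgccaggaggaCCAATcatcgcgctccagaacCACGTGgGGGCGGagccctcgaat
Parp1, chr1:180568641-180568890: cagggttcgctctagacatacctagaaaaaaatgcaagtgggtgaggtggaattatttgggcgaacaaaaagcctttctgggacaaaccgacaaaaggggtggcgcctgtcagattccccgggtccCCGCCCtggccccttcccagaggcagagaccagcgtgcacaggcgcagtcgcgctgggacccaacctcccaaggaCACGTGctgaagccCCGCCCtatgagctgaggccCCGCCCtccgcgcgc
Parp2, chr14:50807666-50807915: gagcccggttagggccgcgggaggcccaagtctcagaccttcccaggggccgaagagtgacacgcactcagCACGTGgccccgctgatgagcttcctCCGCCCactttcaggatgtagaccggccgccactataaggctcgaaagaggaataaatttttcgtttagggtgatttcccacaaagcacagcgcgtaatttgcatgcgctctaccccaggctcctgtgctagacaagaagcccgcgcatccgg

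All 4 promoters were rich in G, C and CpG, with 63.6% G and C and 20 CpG in Ogg1, 64.8% and 28 in Apex1, 61.6% and 16 in Parp1 and 58.8% and 18 in Parp2. The median over 32851 mouse promoters of the same length was 52.4% and 6. Fewer CpG were held by 82.05% of promoters than by that of Ogg1, 92.39% for Apex1, 74.56% for Parp1 and 78.33% for Parp2. Each of the 4 held the GC box, with 2 matches in Ogg1, 1 in Apex1, 3 in Parp1 and 1 in Parp2, against 32.7% of all promoters. The E-box was matched once each in Apex1, Parp1 and Parp2, and 6.02% of all promoters held it. Ogg1 alone of the 4 held the ETS core, with 2 matches that begin 126 and 102 bases before the start, against 6.91% of all promoters. CCAAT was matched 2 times in Ogg1 and 1 time in Apex1, against 33.85% of all promoters. No window held TATAAA, which 12.4% of all promoters did. In Apex1 the E-box and the GC box are separated by a single base, and no matches overlapped. These matches describe the letters of the windows.

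Ogg1, the glycosylase, differed little between the genotypes in the mean, at a level about 2 times the floor. Control females had 46.93, 41.64 and 42.99 normalized counts and mtOGG1 females 37.44, 55.73 and 39.59. Control males had 42.72, 40.57 and 36.09 and mtOGG1 males 40.53, 45.48 and 32.89. The ranges of the genotypes overlapped in both sexes, and the highest and the lowest of the 12 values both belonged to mtOGG1 mice. By group mean the order was mtOGG1 females at 44.3 ± 9.997 (SD, n = 3), control females at 43.9 ± 2.75 (SD, n = 3), control males at 39.8 ± 3.38 (SD, n = 3) and mtOGG1 males at 39.6 ± 6.34 (SD, n = 3). The genotypes within a sex differed by less than 1 normalized count, and the step between control females and control males lay within the spread of the mtOGG1 groups.

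**Figure D1:**
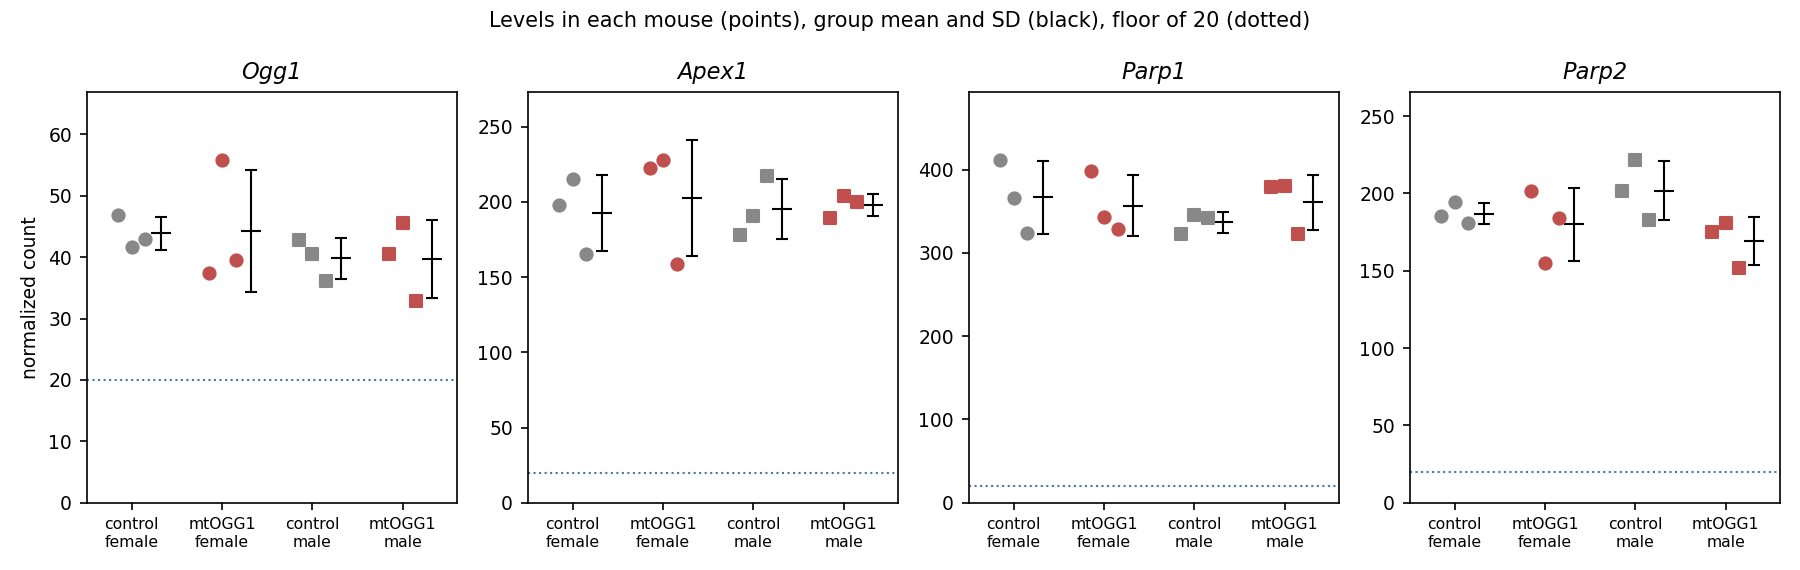
Normalized counts (vertical axes, starting at 0) of Ogg1, Apex1, Parp1 and Parp2 in 3 mice of each group, controls in grey and mtOGG1 in red, females as circles and males as squares. Black marks give the group mean and SD, the dotted line is the floor of 20, and Parp2 in males is the only panel in which the mice of one genotype all lie below those of the other of the same sex.

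Across females and males, controls averaged 41.8 ± 3.54 and mtOGG1 mice 41.9 ± 7.90 normalized counts of Ogg1 (SD, n = 6 each). By limma the ratio was 0.992 (95% interval 0.827 to 1.19) at an adjusted p of 0.967. Differences inside that interval were not resolved, and larger ones in the signal of this probe lay outside it. Ratios here are differences on the log2(value + 1) scale, taken back from logarithms, and understate the change of low values. By unadjusted p, Ogg1 ranked 585 of the 608 genes. None of the 4 members had an adjusted p under 0.05 in this comparison, where 8 of 608 genes (1.32%) had one, 1 higher (0.164%) and 7 lower (1.15%) in mtOGG1 mice. An unadjusted p under 0.05 was reached by 71 genes (11.7%) and by 0 of the 4. The probe sequence was not used here and the labels do not say whether the probe reads the transgene, so that these values do not measure how much OGG1 the mtOGG1 mice made.

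The depth behind the Ogg1 values sets what they can show. The molecules counted were inferred by dividing each value by the constant that best returned whole numbers for its sample. They lay between 32 in mtOGG1 female 1 and 49 in mtOGG1 female 2. The exact Poisson 95% interval of the highest value, mtOGG1 female 2, ran from 41.2 to 73.7 normalized counts and that of the lowest, mtOGG1 male 3, from 23.04 to 45.5, so that even these overlapped. Pooled within the 4 groups the SD of Ogg1 was 6.31 normalized counts, against 6.55 from counting alone, a variance ratio of 0.927. Only 9.50% of the 537 genes above the floor in every mouse had a smaller ratio, and the median ratio over them was 3.02. Differences in Ogg1 between mice of one group were therefore not detectable at this depth. On the log2 scale the pooled SD of Ogg1 was 0.205 against a median of 0.181, and 62.6% of the 537 genes had a smaller one. The intervals cover counting error only.

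**Figure D2:**
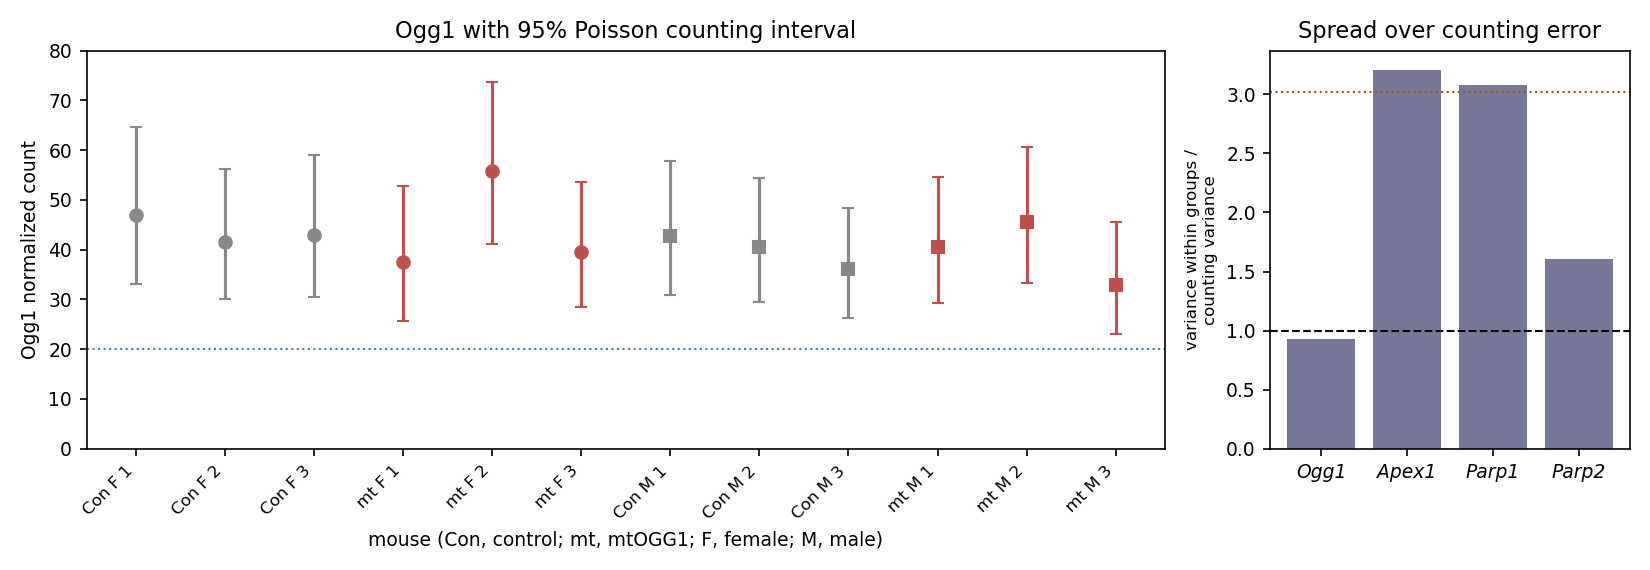
Left, Ogg1 in each mouse (normalized count) with its exact 95% Poisson interval, and the floor of 20 dotted; all 12 intervals overlap. Right, the variance within groups over that expected from counting for the 4 genes, where the dashed line marks 1 and the dotted line the median of 3.02 over 537 genes; Ogg1 stands at 0.927 and Apex1 at 3.21.

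Apex1, the endonuclease that acts after OGG1, also differed little between the genotypes. Its values were 197.88, 215.12 and 165.16 normalized counts in control females and 222.33, 227.47 and 158.37 in mtOGG1 females. Control males had 178, 190.86 and 217.33 and mtOGG1 males 189.46, 203.66 and 200.09. The mtOGG1 males lay wholly within the range of the control males, while 2 mtOGG1 females were above and 1 was below every control female. Across females and males, controls averaged 194 ± 20.5 and mtOGG1 mice 200.2 ± 24.9 (SD, n = 6 each). The ratio was 1.03 (95% interval 0.878 to 1.21) at an adjusted p of 0.904 by limma. It was 1.04 in females (95% interval 0.833 to 1.31) and 1.01 in males (95% interval 0.810 to 1.27). The 2 lowest Apex1 values belonged to control female 3 and mtOGG1 female 3, the females with the most Slc17a6, a glutamate transporter gene typical of thalamic neurons, at 1208.18 and 1374.45 against 195.34 to 617.58 in the other 4. The males with as much Slc17a6, mtOGG1 male 1 at 1596.73 and mtOGG1 male 3 at 1229.8, had Apex1 at 189.46 and 200.09. Over all 12 mice, after taking away group means, Apex1 had Pearson r = -0.573 with Slc17a6 and -0.543 with Ttr, given as a description. With Slc17a6 as a covariate the log2 difference of Apex1 moved from 0.042 to 0.154 over both sexes (limma, adjusted p = 0.910) and from 0.021 to 0.167 in males (limma, adjusted p = 0.901). It was 0.097 with Ttr, a choroid plexus transcript, as a covariate (limma, adjusted p = 0.866) and 0.094 without the 4 samples with Slc17a6 above 1000 (limma, adjusted p = 0.924), both over both sexes. In such bulk samples fewer cells of a type cannot be told apart from less RNA per cell.

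Apex1 varied more between mice than counting allows for. Its pooled SD within groups was 25.4 normalized counts against 14.2 from counting, a variance ratio of 3.21, and 52.1% of the 537 genes had a smaller one. The spread ran unevenly over the groups, a difference that was not tested, with a coefficient of variation of 19.0% in mtOGG1 females and 3.74% in mtOGG1 males, each from 3 mice.

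Parp1, the principal sensor of DNA strand breaks, had the smallest spread within groups of the 4 on the log2 scale, with a pooled SD of 0.13. Control females had 410.98, 365.81 and 323.54 normalized counts and mtOGG1 females 397.85, 343.48 and 329. Control males had 322.44, 345.75 and 341.99 and mtOGG1 males 378.92, 380.63 and 322.53. In females the ranges of the genotypes coincided closely, whereas 2 of the 3 mtOGG1 males exceeded every control male and the third equalled the lowest of them to within 0.1 normalized count. Across females and males, controls averaged 352 ± 33.1 and mtOGG1 mice 359 ± 31.1 (SD, n = 6 each), and limma gave a ratio of 1.02 (95% interval 0.902 to 1.15) at an adjusted p of 0.904. The ratio was 0.974 in females (95% interval 0.818 to 1.16, adjusted p = 1 by limma) and 1.07 in males (95% interval 0.898 to 1.27, adjusted p = 0.792 by limma). Within groups Parp1 had Pearson r = -0.592 with Slc17a6 and -0.497 with Ttr over the 12 mice, again as a description. With Slc17a6 as a covariate the log2 difference of Parp1 over both sexes moved from 0.029 to 0.110 (limma, adjusted p = 0.945) and that in males from 0.095 to 0.201 (limma, adjusted p = 0.732). Panel reference gene scaling gave 0.073 and 0.155. That scaling shifts all genes alike, and their median moved from -0.0086 to 0.036 over both sexes and from -0.022 to 0.038 in males. Its spread within groups exceeded that of counting by a variance ratio of 3.08, next to the median of 3.02.

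Parp2, the second strand-break polymerase, which also builds ADP-ribose chains at breaks, had the largest genotype difference of the 4, without passing the test. Control females had 185.2, 194.31 and 181 normalized counts and mtOGG1 females 201.26, 154.68 and 183.83. Control males had 201.4, 221.28 and 182.89 and mtOGG1 males 175.32, 180.92 and 151.67. The female ranges overlapped, and each mtOGG1 male lay below every control male. The closest pair, control male 3 and mtOGG1 male 2, stood 2 normalized counts apart, and their counting intervals, 159.7 to 208.5 and 155.7 to 209.1, coincided almost wholly.

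Across females and males, controls averaged 194 ± 15.3 and mtOGG1 mice 175 ± 18.8 normalized counts of Parp2 (SD, n = 6 each). Limma gave a ratio of 0.897 (95% interval 0.783 to 1.03) at an adjusted p of 0.529. In males the means were 202 ± 19.2 and 169 ± 15.5 (SD, n = 3 each), with a ratio of 0.840 (95% interval 0.693 to 1.02) at an adjusted p of 0.424 by limma. In females they were 187 ± 6.80 and 180 ± 23.5 (SD, n = 3 each), with a ratio of 0.958 (95% interval 0.790 to 1.16) at an adjusted p of 1 by limma. Groups that did not overlap were common in males, with 108 of the 608 genes (17.8%), of which 73 (12.0% of the 608) were lower in mtOGG1 males, so that the Parp2 order is one that many genes showed. In females 32 of the 608 genes (5.26%) did not overlap, 21 of them (3.45%) lower in mtOGG1 mice, and none of the 4 members was among them. By unadjusted p, Parp2 ranked 102 of 608 in males and 124 of 608 over both sexes.

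Of the other cell types, markers of oligodendrocytes and of endothelial cells and pericytes each leaned in a single direction between the same groups of males. Genes of a list were read in the same mice, so their signs are not independent. All 14 oligodendrocyte genes measured lay above 0 in males and all 7 endothelial and pericyte genes below 0, where 274 of all 608 genes lay above 0. In females 11 of the oligodendrocyte genes lay above and 3 below 0, and 3 of the endothelial and pericyte genes above and 4 below. In each list 1 gene passed the test in males, where 6 of 608 genes (0.987%) did, and both are named after their values were seen. Opalin, a myelin gene, had a log2 ratio of 0.70 (limma, adjusted p = 0.0155), and the call held in 20 of 27 alternatives. It was lost on leaving out mtOGG1 male 1, mtOGG1 male 3 or control male 1, without the filter, with an ordinary linear model, with Slc17a6 as a covariate and without the samples with Slc17a6 above 1000 (limma, adjusted p = 0.548 in the last). Ly6a, an endothelial gene, had one of -0.67 (limma, adjusted p = 0.0253), and the call held in 16 of 27. It was lost without any 1 of the males other than mtOGG1 male 1, under the last 4 settings that ended the Opalin call, with positive control scaling and with Ttr as a covariate (limma, adjusted p from 0.0508 to 0.145). Summed over the 14 oligodendrocyte genes the level was 17535 to 24988 normalized counts in mtOGG1 males and 13081 to 17967 in control males, which overlapped, and over the 7 endothelial and pericyte genes 662 to 758 against 873 to 986, which did not. The oligodendrocyte sums were 17960 to 24319 in control females and 18134 to 24072 in mtOGG1 females, so that control males had the lowest range. The endothelial and pericyte sums in females were 712 to 918 and 704 to 866. Opalin was also called for sex over both genotypes (0.50 higher in females, limma, adjusted p = 0.0207). Ly6a was also called for genotype over both sexes (-0.43, limma, adjusted p = 0.0486). Slc17a6 was at 403.37 to 1596.73 in mtOGG1 males and 221.74 to 725.62 in control males, and Ttr at 1172.57 to 1524.91 and 35.6 to 1510.24, and both overlapped. Sums over 12 neuron genes (22369 to 29577 against 25149 to 26078), 7 astrocyte genes (7386 to 7583 against 6338 to 7727) and 16 microglia and macrophage genes (4887 to 4930 against 4332 to 5201) also overlapped. None of the genes in these lists stood at the floor in all mice. With Slc17a6 as a covariate the log2 value of Parp2 in males was -0.25, and with Ttr -0.26, next to -0.25 without either. It was -0.15 (limma, adjusted p = 1) without the 4 samples with Slc17a6 above 1000, which leaves 1 mtOGG1 male assumed to vary like the other groups. Within groups Parp2 had Pearson r = -0.015 with Slc17a6 and 0.080 with Ttr over the 12 mice, so these covariates could move it little. No oligodendrocyte or endothelial gene was used as a covariate. The part of those cell types in the Parp2 values was not tested.

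**Figure D3:**
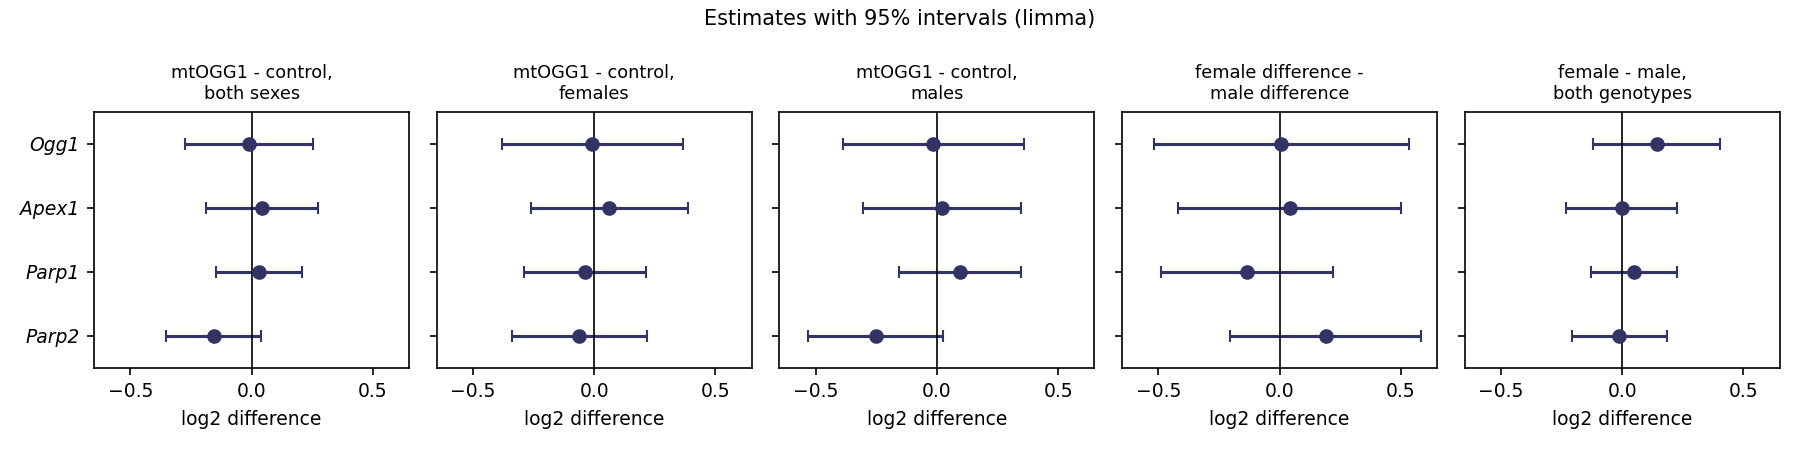
Log2 differences (horizontal axes) of the 4 genes in 5 comparisons, points giving the limma estimate and bars the 95% interval. Every interval includes 0, and the farthest point from it is Parp2 in males at -0.25.

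The interaction term of the model tested if the genotype difference was unequal in females and males. The female difference exceeded the male difference by 0.0069 on the log2 scale for Ogg1, 0.041 for Apex1 and 0.19 for Parp2, and fell below it by 0.13 for Parp1. The 95% intervals were wide, from -0.52 to 0.53 for Ogg1, -0.42 to 0.50 for Apex1, -0.49 to 0.22 for Parp1 and -0.20 to 0.58 for Parp2 (limma, adjusted p from 0.988 to 0.999). The share of the 608 genes with an adjusted p under 0.05 was 0.0% for the interaction, both by limma and by an ordinary linear model, with 29 genes (4.77%) at an unadjusted p under 0.05. Within females it was also 0.0% by both, with 18 genes (2.96%) at an unadjusted p under 0.05. Within males it was 0.987%, with 1 gene higher (0.164%) and 5 lower (0.822%), and 81 genes (13.3%) had an unadjusted p under 0.05. None of the 4 members passed in these comparisons, so that a Parp2 difference particular to males is not shown.

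The sexes were compared over both genotypes, with 6 mice a side. Ogg1 was 44.1 ± 6.56 (SD, n = 6) in females and 39.7 ± 4.55 (SD, n = 6) in males, a log2 difference of 0.14 (95% interval -0.12 to 0.40) at an adjusted p of 0.927 by limma. Apex1 had a difference of -0.0029, Parp1 one of 0.050 and Parp2 one of -0.012, with adjusted p from 0.974 to 0.999. None of the 4 passed, where 4 of the 608 genes (0.658%) did, 2 in each direction (0.329% each), and 39 (6.41%) had an unadjusted p under 0.05. Directions here depend on scaling: with samples scaled on the positive controls the median of all genes moved from 0.044 to -0.15, and Ogg1 stood at -0.054 and Parp1 at -0.15.

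The 4 genes were next compared with each other, mouse by mouse, after taking away the group means. On the values as deposited the highest correlation was between Parp1 and Parp2 (Pearson r = 0.525, two-sided exact permutation within groups, p = 0.130, adjusted p = 0.632 over 6 pairs, Spearman rho = 0.545, p = 0.110, adjusted p = 0.657). It was 0.401 without control female 3 and mtOGG1 male 3, the mice farthest from the median of Parp1. Apex1 and Parp1 had r = 0.512 (exact permutation, p = 0.211, adjusted p = 0.632) and rho = 0.413 (p = 0.286, adjusted p = 0.857). Without the third mouse of each female group, the 2 farthest from the median of Apex1, r was 0.150. The other 4 pairs had r between -0.165 and 0.160 and adjusted p of 0.857 or more for r and rho by exact permutation. After median centring the highest was Apex1 and Parp1 at r = 0.643, and 0.343 without the same 2 mice. Parp1 and Parp2 had r = 0.6125 there (exact permutation, adjusted p = 0.301 for both pairs). With that centring Ogg1 had r = 0.390 with Parp1 and r = 0.344 with Apex1 (exact permutation, adjusted p = 0.322 and 0.567). Each of the 3 relations of Ogg1 is limited by its counting error. All points share the scaling of their sample, and 12 mice limit the precision.

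As a description, the 3 genes most like each member were taken by Pearson r over the same 12 deviations from group means among 607 other genes. For Apex1 they were Dot1l, a histone methyltransferase gene, at 0.885, Pcna, the sliding clamp of DNA polymerases, at 0.871 and Pms2, a mismatch repair gene, at 0.860, with 0.549, 0.605 and 0.859 over the values before group means were taken away. For Parp1 they were Mfge8 at 0.913, Rala at 0.899 and Apc at 0.898, with 0.804, 0.839 and 0.701 over those values. For Parp2 they were Fgf13 at 0.928, Map2k4 at 0.789 and Atp6v1a at 0.782, with 0.110, 0.520 and 0.258. For Ogg1 they were Gpr183 at 0.767, Supt7l at 0.752 and Tlr7 at 0.746, with 0.564, 0.192 and 0.704, and of these Gpr183 stood at the floor in 8 mice and Tlr7 in 6. The highest of 607 correlations is large by construction, and the median over all 607 lay between -0.0097 for Ogg1 and 0.242 for Parp1.

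The rest of the pathway was read from a list of 27 further base excision repair genes, of which 9 had a row and 8 were tested. None of the 8 passed over both sexes. Their log2 ratios of mtOGG1 to control lay above 0 in 4 and below 0 in 4, with a median of 0.0013, where that of all 608 genes was -0.0086 and 289 of them lay above 0. Of the other glycosylases, Nthl1, which removes oxidised pyrimidines, had a value of 0.18, Ung, which removes uracil, -0.15, and Mpg, which removes alkylated bases, 0.044. These 3 transcripts, like Ogg1, were read close to the floor, with medians over 12 mice of 32.02, 33.2 and 39.6 normalized counts, and Nthl1 stood at the floor in 2 mice and Ung in 1. Among the genes of gap filling and sealing, Rpa1, a subunit of the single-strand binding protein, averaged 394 ± 36.9 in controls and 438 ± 42.3 in mtOGG1 mice (SD, n = 6 each), a log2 ratio of 0.15 at an adjusted p of 0.514 by limma. Pcna averaged 577 ± 57.8 and 523 ± 42.7 (SD, n = 6 each), a log2 ratio of -0.14 at an adjusted p of 0.514 by limma. DNA ligase 1 (Lig1) had a value of 0.18, the flap endonuclease Fen1 one of -0.11 and Hmgb1, a chromatin protein that also binds repair intermediates, one of -0.042. The polymerase gene Pole stood at the floor in all 12 mice. Within males the 8 genes had a median of -0.11, with 3 above and 5 below 0, and within females 0.050, with 5 above and 3 below, and none passed in either.

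Repair by other routes was read from 60 listed genes of nucleotide excision, mismatch and double-strand break repair, of which 23 had a row and 17 were tested. None of the 17 passed over both sexes, 11 lay above and 6 below 0, and the median log2 ratio was 0.013. The smallest p belonged to Ercc2, a helicase of nucleotide excision repair, at 0.16 (limma, adjusted p = 0.469), Prkdc, the DNA-dependent protein kinase, at 0.19, Blm, a helicase, at -0.18 and Mdc1, a scaffold at double-strand breaks, at -0.11.

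**Figure D4:**
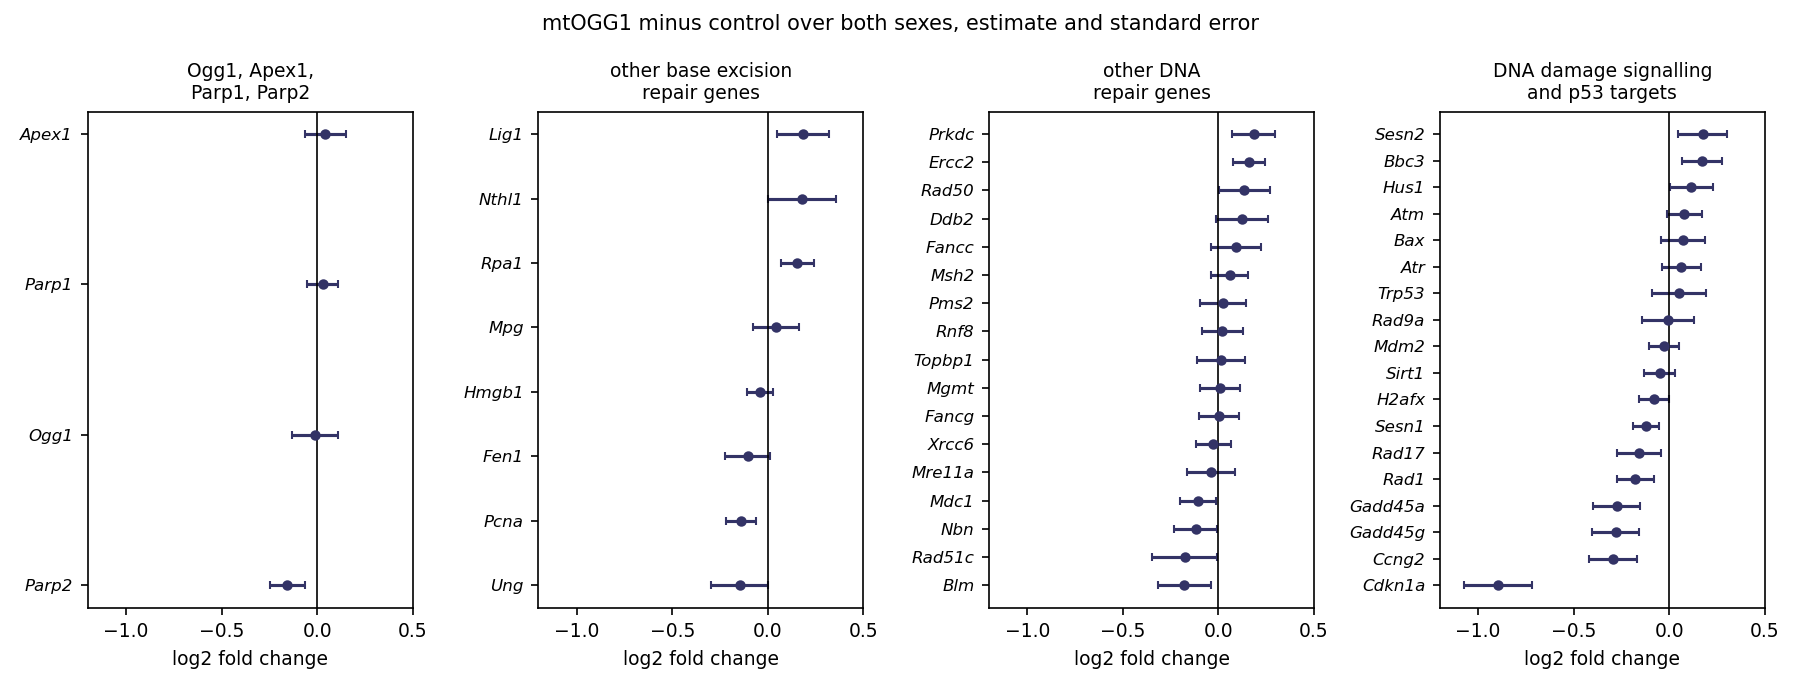
Log2 fold change of mtOGG1 over control mice across both sexes (horizontal axes) for the 4 genes, 8 other base excision repair genes, 17 other DNA repair genes and 18 genes of damage signalling, with bars for the standard error. Cdkn1a at -0.90 is the only one of these genes past the threshold.

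Of the genes that signal or respond to DNA damage, 18 of 32 listed were tested and 1 passed over both sexes, where 8 of all 608 genes (1.32%) did. Cdkn1a, the p53 target that encodes the cell cycle inhibitor p21, averaged 172 ± 29.0 in controls and 95.2 ± 30.1 in mtOGG1 mice (SD, n = 6 each), a log2 ratio of -0.90 at an adjusted p of 0.0231 by limma. The call was lost without control female 1 (-0.84, limma, adjusted p = 0.0794), mtOGG1 female 3 (-0.76, adjusted p = 0.0535), control male 2 (-0.91, adjusted p = 0.0669) or control male 3 (-0.82, adjusted p = 0.0981), with Slc17a6 as a covariate (-0.71, adjusted p = 0.0549), without the 4 samples with Slc17a6 above 1000 (-0.56, adjusted p = 0.414), without the filter on low values (adjusted p = 0.163) and with an ordinary linear model (adjusted p = 0.196). Ccng2, Gadd45g and Gadd45a had values of -0.29, -0.28 and -0.27 and did not pass (limma, adjusted p = 0.401 each). Ccng2 was at -0.17 without mtOGG1 female 3 and at -0.052 without the samples with Slc17a6 above 1000. The damage kinases Atm and Atr had values of 0.080 and 0.063, and Trp53 itself one of 0.052. The list's median was -0.038, with 7 members above and 11 below 0. Of 11 tested genes of oxidative stress defence 0 passed, with a median of 0.051, and the smallest p belonged to Srxn1 at -0.13, Hif1a at 0.10, Sod2, the mitochondrial superoxide dismutase, at 0.061 and Nqo1 at 0.11.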

How the data were processed

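Hippocampal RNA of 12 mice was read on an nCounter panel, per the labels' protocols. The deposited signal is normalized, and the authors used the nCounter Advanced Analysis software, as the series' design text states. A constant for each mouse (0.82 to 1.27) was found by searching for the one that best turned gene values into whole numbers. Dividing by it returned whole numbers, taken as molecules, for 100% of gene values over 20, to within 0.01. No gene value lies under 20. The origin of these constants is not stated in the sources used here.

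The log2(value + 1) of 608 genes exceeding 20 in 3 or more mice entered a linear model of the 4 group means (limma 3.58.1, R 4.3.3), using moderated variances that follow a trend. P-values were adjusted by Benjamini-Hochberg over the 608 genes, with a threshold of 0.05. Counting intervals, permutation tests and figures came from Python 3.11.15 with scipy 1.17.1 and matplotlib 3.10.9. The model was run on simulated data with planted changes larger than the genotype differences estimated for the members. That run does not bear on differences of the members' size. Members and gene lists were chosen with earlier results of these data known. Every member is named in every comparison. From each list of repair, damage and oxidative stress genes come the genes past the threshold and the 4 with the smallest p over both sexes. From the cell type lists come the genes past the threshold. Others are named for their role, after their values were seen. Because of the floor no count model was used. Mice with the same replicate number deviated together in some pairs and not in others (correlations from -0.336 to 0.556 over 18 pairs, 8 over 0.1). The labels state no pairing, so numbers were not used as pairs. Mice of a group differed beyond sampling noise in all 12 pairs (chi-square per degree of freedom at least 2.47). The settings varied were the pseudocount, the low-value filter, the scaling, the variance model, covariates and the mice included.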

Additional observations from a re-analysis of the deposited data

How the results depend on the processing

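The 20 member values (4 genes, 5 comparisons) were recomputed 528 times under 27 settings, and 0 crossed the threshold. The sign held in 461 and turned in 67. Changing the low-value filter, the variance model or the replicate block leaves the estimate itself unchanged. Within a sex, so does leaving out a mouse of the other sex or fitting that sex alone. Many of the held signs were therefore fixed in advance. Parp2 kept its sign in both the male and the pooled genotype comparison under every setting run. It ran from -0.20 (without mtOGG1 female 1) to -0.10 (without mtOGG1 female 2) over both sexes. In males it ran from -0.32 (without control male 3) to -0.15, where the lowest adjusted p was 0.277 by limma. The replicate block changed no call of a member (Parp2 over both sexes -0.157, adjusted p = 0.567, limma), and gave 7 called genes over both sexes; 4 of 12 samples correlated best with a sample of their own number. Mouse number, the floor and, for Ogg1, counting error limit these values. A change of scaling shifts all genes of a comparison by the same amount, and the causes of the other changes below were not tested.

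Signs turned as follows on the log2 scale. With panel reference genes (12 of them), Ogg1 stood at 0.034 over both sexes, 0.021 in females, 0.046 in males and -0.024 for the interaction. The median of all genes moved as well, from -0.0086 to 0.036 over both sexes. With positive control scaling Ogg1 was 0.022 in males, -0.069 for the interaction and -0.054 for sex, Apex1 -0.035 for the interaction and Parp1 -0.146 for sex. With Slc17a6 as a covariate Ogg1 was 0.058 over both sexes, 0.041 in females, 0.075 in males and -0.034 for the interaction, Parp1 0.020 in females and Apex1 -0.025 for the interaction, while Nthl1 and Nqo1 were -0.095 and -0.138 over both sexes. With Ttr as a covariate Ogg1 was 0.020 over both sexes, 0.043 in males and -0.048 for the interaction, Apex1 -0.058 for the interaction, Parp1 -0.014 for sex and Nqo1 -0.0058 over both sexes. Without the 4 samples with Slc17a6 above 1000, an alternative chosen after seeing the data that leaves 1 mtOGG1 male, Ogg1 was 0.119 over both sexes, 0.047 in females, 0.192 in males and -0.145 for the interaction, Apex1 0.113 for sex and Nqo1 -0.025 over both sexes. Correlations turned for Ogg1 and Apex1 without the farthest 2 samples (-0.101), for Ogg1 and Parp2 after median centring (0.112) and without the farthest 2 samples (0.035), and for Apex1 and Parp2 after median centring (0.079).

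With 1 mouse left out, values over both sexes ran from -0.098 (without mtOGG1 female 2) to 0.052 (without mtOGG1 male 3) for Ogg1, from -0.011 (control female 3) to 0.126 (mtOGG1 female 3) for Apex1 and from -0.015 (control female 3) to 0.072 (control female 1) for Parp1. In females they ran from -0.182 to 0.099 for Ogg1, -0.044 to 0.230 for Apex1, -0.125 to 0.048 for Parp1 and -0.147 to 0.042 for Parp2. In males they ran from -0.117 to 0.110 for Ogg1 and -0.043 to 0.1002 for Apex1. For the interaction they ran from -0.167 to 0.114 for Ogg1 and -0.065 to 0.209 for Apex1, and for sex from -0.049 to 0.081 for Apex1 and -0.054 to 0.040 for Parp2. Values that kept their sign but moved over 1.5 times were Parp1 in males, from 0.055 (mtOGG1 male 2) to 0.174 (mtOGG1 male 3), its interaction, from -0.22 (control female 3) to -0.048 (control female 1), its sex difference, from 0.0076 (control female 1) to 0.094 (control female 3), the Parp2 interaction, from 0.106 (mtOGG1 female 1) to 0.295 (mtOGG1 female 2), and Ogg1 for sex, down to 0.055 (mtOGG1 female 2). The Parp2 interaction was 0.049 without the samples with Slc17a6 above 1000. Of the 16 listed repair, damage and oxidative stress genes named by p over both sexes, 11 moved over 1.5 times without some 1 mouse, among them Lig1 (to 0.091 without control female 2), Blm (to -0.097 without control male 2), Mdc1 (to -0.050 without mtOGG1 female 3) and Sod2 (to 0.0054 without mtOGG1 female 1).

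Counts of called genes moved more. The 8 over both sexes were 5 at pseudocounts of 5 and 20 and among genes above the floor in all samples, 0 without the filter and with an ordinary linear model, and 2 without the samples with high Slc17a6. With 1 mouse left out they ran from 3 (without mtOGG1 female 3 or control male 2) to 12 (without mtOGG1 male 2), with 4 without control female 1, control male 1 or control male 3 and 5 without mtOGG1 female 2 or mtOGG1 male 3. The 6 in males were 12 after median centring and without a variance trend, 11 with panel reference genes, positive controls or robust variances, 10 with only the males fitted, and 0 without the filter, with an ordinary linear model or without the samples with high Slc17a6. With 1 mouse left out they ran from 4 to 19 (without mtOGG1 female 3), with 14 without mtOGG1 male 2, 11 without control female 2 and 10 without mtOGG1 female 1. The 0 in females became 1 with Ttr as a covariate and 0 to 2 with 1 mouse left out (2 without control female 3), and the 0 of the interaction 0 to 1 (1 without control male 3). The 4 for sex were 2 without the filter, above the floor in all samples, with panel reference genes, with an ordinary linear model and without the samples with high Slc17a6, and 2 to 5 with 1 mouse left out (2 without mtOGG1 female 1, mtOGG1 female 2 or control male 1). None of these calls was a member.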
